A study of Mus musculus with 10 samples.

Results

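The genes described here encode the protein components of the mitochondrial ribosome. They were taken as every gene symbol made of Mrpl or Mrps, a number and at most 1 further letter, which picked 78 of the 20813 genes in the deposited table: 49 Mrpl symbols, named for the large subunit, and 29 Mrps symbols, named for the small subunit. RNA was sequenced from leukemic spleens of C57BL/6 mice. All samples go back to Sirt1 conditional knockout T-cell acute lymphoblastic leukemias (T-ALL, a cancer of immature T cells), which had been injected into a vein of sublethally irradiated recipients. Sirt1 is an NAD-dependent protein deacetylase. The 5 samples labelled Sirt1-deleted (replicates 7, 8, 10, 11 and 12) have TMX in their titles and the 5 controls (replicates 2 to 6) have VEH. The treatments described are tamoxifen, 3 mg per mouse in corn oil by intraperitoneal injection, and corn oil alone. Titles and genotype label divide the samples in the same way, so treatment and deletion cannot be told apart. Any recombinase that acts on the allele, the age of the mice, and whether the leukemias go back to 1 primary tumour are not given in the sources used here. Nothing in the labels says that each sample is a separate mouse, so p-values measure the spread between these samples. The spleens can also hold cells of the host after red cell lysis, and in bulk RNA fewer cells of a type and less RNA per cell cannot be told apart.

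The mitochondrial ribosome translates the messages carried by mitochondrial DNA, all of which encode membrane subunits of the respiratory chain and ATP synthase. Its RNAs come from the mitochondrial genome, but all its proteins are encoded in the nucleus, made in the cytosol and imported. Some of these proteins descend from bacterial ribosomal proteins and others occur only in mitochondrial ribosomes. The small subunit reads the messenger RNA and the large subunit joins the amino acids. Proliferating cells, leukemic T cells among them, need this machine to build their respiratory chain.

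Deposited totals were alike, at 33.7 to 34.5 M normalized counts per sample (M, mega). Sirt1 itself did not separate the groups: it stood at 1873 ± 146 normalized counts in the samples labelled Sirt1-deleted and 1810 ± 62.5 in the controls (SD, n = 5 each; log2 difference 0.05, limma adjusted p = 0.568). A gene-level value does not show whether an exon was removed, so the group is called by its label throughout. Summed T-lineage markers were abundant in both groups, from 299595 to 321910 and from 294872 to 316116. Of the 16 markers summed, limma called 3 higher (18.8%) and 4 lower (25%), beside 16.8% and 19.4% of all genes tested. Their log2 differences ran from -0.61 to 0.39, so the sums hide shifts in both directions. Of 14 neutrophil markers 13 were higher in the labelled Sirt1-deleted group, with sums of 27194 to 93521 against 8474 to 11778, and of 16 macrophage and monocyte markers 13 were higher, with sums of 7347 to 13304 against 3586 to 4101. Of 12 B cell and 13 erythroid markers limma and an adjusted rank-sum test called 0 in either direction, and at an unadjusted p under 0.05 limma had 2 B cell markers higher and 3 erythroid markers lower. No marker tested was at 0 in any sample.

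The mitochondrial ribosomal protein genes were shifted upward in the labelled Sirt1-deleted samples, by small amounts in many genes. All 78 passed the filter on low values (a mean of at least 10 normalized counts). The test, limma on log2(normalized count + 1) with a Benjamini-Hochberg adjusted p under 0.05 over all 15276 genes tested, called 34 of them (43.6%) higher, where it called 16.8% of all genes tested higher. It called 1 lower (1.28%), where it called 19.4% of all genes lower. The median log2 difference of the 78 genes was 0.14, beside -0.00014 over all genes tested, and 63 of 78 differences were positive. The 34 rises were between 1.10-fold and 1.49-fold, with a median of 1.20-fold. For 26 genes every labelled Sirt1-deleted sample lay above every control, which was so for 11.1% of all genes tested. No member had all its labelled Sirt1-deleted samples below the controls, which was so for 12.9% of all genes. The other 43 genes did not pass: 29 had positive and 14 had negative differences. The markers of neutrophils and macrophages given above moved with the same groups, and their part in these counts was not tested. Another scaling of the samples, by their upper quartiles, called 47 members higher and 1 lower, and over all genes it called 20.7% higher and 14.9% lower.

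**Figure D1:**
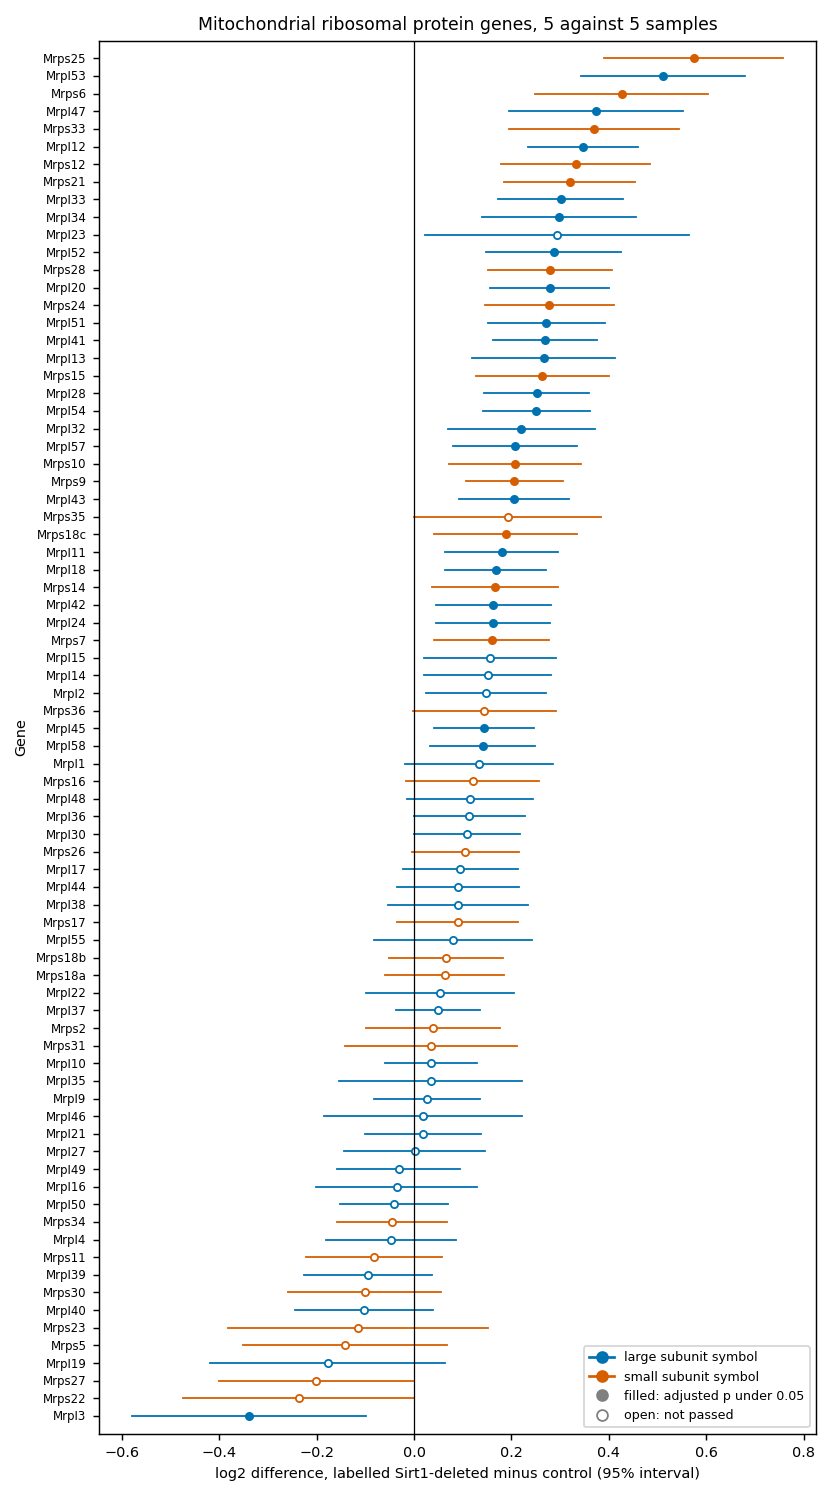
Log2 differences (labelled Sirt1-deleted minus control) of the 78 genes on the horizontal axis, with 95% intervals as bars, 1 gene per line, coloured by subunit symbol; filled points passed the limma test. The filled points reach from 0.14 to 0.57 above 0, and Mrpl3, at -0.34, is the filled point below 0.

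Both subunits shared this shift to nearly the same extent. Of the 49 Mrpl genes 21 were called higher and 1 lower, with a median log2 difference of 0.14. Of the 29 Mrps genes 13 were called higher and 0 lower, also with a median of 0.14. At an unadjusted p under 0.05 limma had 1 lower Mrps gene, Mrps27, and an exact rank-sum test with adjustment called 0. Averaged over its genes, the log2 value of the large subunit was 10.88 ± 0.0415 in the labelled Sirt1-deleted group, beside 10.75 ± 0.0471 in the controls (SD, n = 5 each), a difference of 0.13. For the small subunit the averages were 10.71 ± 0.0308 and 10.58 ± 0.0530, again a difference of 0.13. The large-minus-small difference within a sample was 0.167 ± 0.0153 and 0.167 ± 0.00982, with overlapping ranges of 0.154 to 0.192 and 0.154 to 0.181. Since the genes were chosen with results known, these averages are descriptions and carry no test.

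**Figure D2:**
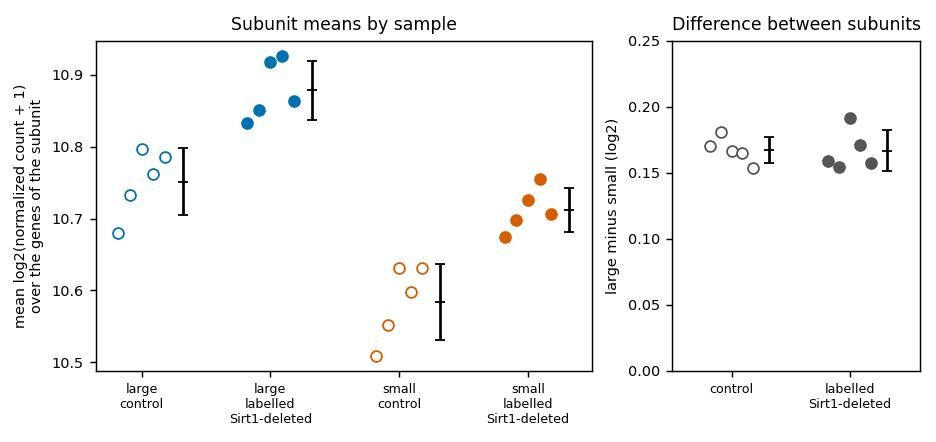
Left, mean log2(normalized count + 1) over the large-subunit and the small-subunit genes in each sample (points), with group mean and SD (n = 5); right, the large-minus-small difference. In both subunits every labelled Sirt1-deleted sample lies above every control, and the differences on the right overlap.

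Symbols and places in the ribosome disagree for 3 genes. Mrps18a and Mrps30 carry small-subunit symbols, but their proteins sit in the large subunit. Mrps36 is known as a component of the 2-oxoglutarate dehydrogenase complex and has no agreed place in the ribosome. With genes sorted by place, 21 of 51 large-subunit genes were called higher and 1 lower (median 0.13), and 13 of 26 small-subunit genes higher and 0 lower (median 0.16). Within the small subunit the calls fell unevenly over the evolutionary classes. Of the 16 small-subunit genes classed as having bacterial relatives 11 were called higher (median 0.20). Of the 10 classed as mitochondria-specific 2 were, Mrps25 and Mrps33 (median 0.05). In the large subunit 11 of 30 genes with bacterial relatives and 10 of 21 mitochondria-specific genes were called higher (medians 0.14 and 0.12). Mrps18b and Mrps18a, relatives of bacterial protein S18, were counted with the mitochondria-specific genes of their subunits. The split therefore depends on how such genes are classed. It also depends on the correction for length and GC content described below. There Mrps7, Mrps10, Mrps14 and Mrps18c, of the small-subunit genes with bacterial relatives, lost the call and Mrps17 gained it. Of the mitochondria-specific small-subunit genes Mrps26 gained it, and the rise of Mrps25 is uncertain for a reason given below. No test compares these classes.

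Many of these transcripts resemble other transcripts, which matters for how reads were assigned. The submitters' processing notes name kallisto, which assigns reads by words of 31 bases. In 35 of the 78 genes at least 10% of these words, on either strand, also occur in transcripts of another gene in GENCODE M21, often a pseudogene or an overlapping neighbour, and in 6 genes at least 50% do. Of the 43 genes with less sharing 15 were called higher and 1 lower, with a median log2 difference of 0.11. Of the 35 with more sharing 19 were called higher (median 0.16). The 2 largest rises belong to genes that share most of their words.

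Mrps25 (chr6:92169525-92184033, minus strand, mm10), a small-subunit protein found only in mitochondrial ribosomes, had the largest difference. Its normalized counts were 5124, 5000, 4188, 4427 and 5904 in labelled Sirt1-deleted replicates 7, 8, 10, 11 and 12 and 2936, 3247, 3418, 3486 and 3373 in control replicates 2 to 6, in the order of the replicates, which is kept below. Every labelled Sirt1-deleted sample was above every control (4929 ± 670 against 3292 ± 217, SD, n = 5 each; log2 difference 0.57, SE 0.085, adjusted p = 0.000756). Yet 74.6% of its words are shared with Nr2c2, a nuclear receptor gene on the opposite strand whose transcripts overlap the end of Mrps25. Nr2c2 moved the other way, at 1813 ± 342 against 3093 ± 315 (log2 difference -0.79, adjusted p = 0.000819). Their sum was 6742 ± 417 against 6385 ± 234, and the groups' sums overlapped (log2 difference 0.08, exact two-sided permutation p = 0.111). The rise of Mrps25 is therefore uncertain. The sums of pairs were formed after the values were seen.

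Mrpl53 (chr6:83109040-83109939, plus strand), a mitochondria-specific large-subunit protein, had 1036, 912, 982, 986 and 1064 normalized counts in the labelled Sirt1-deleted group, beside 593, 754, 734, 751 and 671 in the controls. The groups did not overlap (996 ± 58.2 against 701 ± 68.8; log2 difference 0.51, adjusted p = 0.000847). All its words also occur in the predicted gene Gm42688, which had 439 ± 66.1 against 393 ± 22.7 and did not pass the test. Here the sum of both genes kept the separation, at 1435 ± 102 against 1094 ± 81.5 (log2 difference 0.39, exact two-sided permutation p = 0.00794, the smallest that 5 against 5 samples can give). The sum does not show which of the 2 genes carries the rise. Mrpl43 shares 24.0% of its words with the mitochondrial DNA helicase gene Twnk, and both were called higher without overlap, Mrpl43 at 1909 ± 88.4 against 1656 ± 73.5 (log2 difference 0.20) and Twnk at 1318 ± 103 against 1065 ± 69.4 (log2 difference 0.31, adjusted p = 0.00524). Words were compared on either strand. Whether reads of these 2 genes can be told apart where they share words depends on the strand setting, which is not given. Mrpl23, with 77.0% of its words in the pseudogene Mrpl23-ps1, did not pass the test on its own, and its value is uncertain.

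The next largest rises of the large subunit were those of Mrpl47 and Mrpl12, with 20.3% and 18.5% shared words. Mrpl12 (chr11:120484613-120489065, plus strand) encodes the stalk protein that helps recruit translation factors and has also been reported to bind the mitochondrial RNA polymerase. It had 6432, 6135, 6248, 6112 and 6926 normalized counts in the labelled Sirt1-deleted group, beside 4537, 5114, 5212, 5012 and 5176 in the controls. The lowest of the first 5 exceeded the highest of the others (6371 ± 336 against 5010 ± 275; log2 difference 0.35, SE 0.0523, adjusted p = 0.000799). Mrpl47 (chr3:32725397-32737605, minus strand), a protein near the exit of the peptide tunnel, also rose (1542 ± 139 against 1191 ± 127; log2 difference 0.37, adjusted p = 0.00498). Its groups overlapped, because control replicate 4, at 1389, was above labelled Sirt1-deleted replicate 8, at 1384.

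Mrpl41 (chr2:24974117-24975098, minus strand), a mitochondria-specific protein also studied for effects on cell growth and death, had 1825, 1796, 1697, 1689 and 1798 against 1406, 1422, 1552, 1474 and 1454 normalized counts. The groups were well apart (log2 difference 0.27, adjusted p = 0.0021), though Mrpl41 shares 25.1% of its words with another gene. Mrpl58, a ribosome-bound peptidyl-tRNA hydrolase thought to rescue stalled ribosomes, was called higher with a small difference (2786 ± 114 against 2528 ± 123; 0.14 on the log2 scale, adjusted p = 0.043). That call held in 2 of 10 fits that each left out 1 sample, with an adjusted p of up to 0.102. Mrpl44, which has an RNase III-like fold, did not pass (1144 ± 68.9 against 1074 ± 41.2; log2 difference 0.09, 95% interval -0.04 to 0.22, adjusted p = 0.243).

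Per kilobase of principal transcript, levels ran from 239 normalized counts for Mrpl17 to 5767 for Mrpl52, a 24.1-fold span. Before this division their means were 1747 and 2411, and the lengths used were 7300 and 418 bases. The span therefore rests mostly on the annotated length of 1 transcript per gene. The 6 highest were Mrpl52, Mrpl12, Mrpl33, Mrpl42, Mrps21 and Mrpl18, from 5767 down to 3653 per kilobase. All 6 were called higher, with log2 differences in normalized counts of 0.29, 0.35, 0.30, 0.16, 0.32 and 0.17. For Mrpl52 (chr14:54426909-54429756, plus strand), a mitochondria-specific large-subunit protein with 0% shared words, the values were 2769, 2715, 2433, 2460 and 2874 against 2000, 2170, 2396, 2097 and 2195. Its groups did not overlap (adjusted p = 0.00513). Mrpl12, Mrpl33, Mrpl42, Mrps21 and Mrpl18 share 18.5%, 33.3%, 28.6%, 22.3% and 19.8% of their words with other genes. After the correction for length and GC content described below, 3 of the 6 lost the call: Mrpl52 at 0.14 (adjusted p = 0.0657), Mrpl42 at 0.03 (adjusted p = 0.525) and Mrpl18 at 0.08 (adjusted p = 0.0842). The call of Mrpl42 was less firm and held in 4 of 10 fits without 1 sample, with an adjusted p of up to 0.0713.

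In the small subunit, the largest rise of a gene with no shared words was that of Mrps12 (chr7:28739641-28741820, minus strand), the relative of the bacterial protein at the decoding centre, where codon and anticodon meet. It had 1602, 1646, 1476, 1535 and 1872 normalized counts in the labelled Sirt1-deleted group, beside 1173, 1275, 1351, 1275 and 1373 in the controls. The groups did not overlap (1626 ± 152 against 1289 ± 78.8; log2 difference 0.33, SE 0.0705, adjusted p = 0.00415). Mrps6, Mrps21 and Mrps33 also rose without overlap, with log2 differences of 0.43, 0.32 and 0.37 and adjusted p of 0.0025, 0.00263 and 0.00462. These 3 share 33.8%, 22.3% and 24.1% of their words with other genes. Mrps7, a protein of the head of the subunit, passed narrowly (2535 ± 179 against 2266 ± 66; log2 difference 0.16, adjusted p = 0.0371), in 3 of 10 fits without 1 sample (adjusted p up to 0.0785). Mrps16, a relative of a bacterial assembly-linked protein, did not (1243 ± 74.4 against 1144 ± 73; log2 difference 0.12, 95% interval -0.02 to 0.26, adjusted p = 0.153).

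The other 17 genes called higher had log2 differences from 0.14 to 0.30 and are named here to complete the count. The 11 of the large subunit are Mrpl34, Mrpl20, Mrpl51, Mrpl13, Mrpl28, Mrpl54, Mrpl32, Mrpl57, Mrpl11, Mrpl24 and Mrpl45. The 6 of the small subunit are Mrps28, Mrps24, Mrps15, Mrps10, Mrps9 and Mrps14. Some of these calls were less firm. Those of Mrpl32, Mrpl11, Mrpl24, Mrpl45, Mrps10 and Mrps14 held in 6, 8, 5, 4, 9 and 1 of 10 fits without 1 sample. The groups of Mrpl11, Mrpl24, Mrpl45 and Mrps14 overlapped. Mrpl24 shares 40.3% of its words with Rrnad1, which was also called higher (log2 difference 0.30, adjusted p = 0.0233). Mrpl28 was singled out after its values were seen, for its narrow spread: it had 2483, 2480, 2479, 2498 and 2579 normalized counts in the labelled Sirt1-deleted group, beside 1903, 2121, 2143, 2133 and 2226 in the controls. Its groups did not overlap (log2 difference 0.25, adjusted p = 0.00288), and it shares no words with other genes. Replicates were similar in most members, with a median coefficient of variation of 5.63% in the controls and 6.04% in the labelled Sirt1-deleted group.

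The 3 relatives of bacterial protein S18 gave different outcomes, although their differences were not tested against each other. Mrps18c passed the test at 0.19 on the log2 scale (adjusted p = 0.0468), a call that held in 1 of 10 fits without 1 sample (adjusted p up to 0.0986). Mrps18b, at 0.07 (95% interval -0.05 to 0.18), and the large-subunit protein Mrps18a, at 0.06 (-0.06 to 0.19), did not. Mrps18b and Mrps18c share 64.3% and 35.5% of their words with other genes, so their values are uncertain, and Mrps18a shares 0%. The other large-subunit protein with an Mrps symbol, Mrps30, stood at -0.10 (-0.26 to 0.06). Mrps36, with 41.6% shared words, had 1572 ± 141 against 1419 ± 75.4 normalized counts, a log2 difference of 0.14 with an adjusted p of 0.115.

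One gene fell. Mrpl3 (chr9:105053239-105079888, plus strand), the relative of the bacterial protein next to the peptidyl transferase centre, shares no words with other genes. It had 1740, 2104, 2457, 2335 and 1551 normalized counts in the labelled Sirt1-deleted group, beside 2729, 2443, 2532, 2619 and 2390 in the controls. Replicates 7, 8, 11 and 12 lay below all controls, and replicate 10 lay among them (2037 ± 385 against 2543 ± 136; log2 difference -0.34, SE 0.111, adjusted p = 0.0304). The call was lost without labelled Sirt1-deleted replicate 7 or 12 or without control replicate 2, 4 or 5, with an adjusted p of up to 0.0768. It was also lost after values were corrected for length and GC content of transcripts (adjusted p = 0.0702).

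Other genes at the lower end had differences below 0 but did not pass the test. Mrps22, a mitochondria-specific small-subunit protein, had 1055, 1160, 1429, 1400 and 922 against 1324, 1299, 1401, 1412 and 1507 normalized counts (log2 difference -0.24, adjusted p = 0.109). Mrps5, whose bacterial relative affects translational accuracy, had 2154, 2231, 2728, 2758 and 1858 against 2626, 2591, 2648, 2381 and 2555 (log2 difference -0.14, adjusted p = 0.271). In both genes, and in Mrpl3, Mrpl19 and Mrps27, replicates 10 and 11 were the highest of their group. An earlier analysis of these data, whose values are not given here, had placed these 2 samples nearest to the controls. Averaged over all members they lay farthest from the controls, with mean log2 values of 10.85 and 10.86. Replicates 7, 8 and 12 had 10.77, 10.79 and 10.80, and the highest control, replicate 4, had 10.74. Leaving out replicates 10 and 11 lowers the 5 genes named above by construction. The fit of 3 against 5 samples then called all 5 lower, which is no independent evidence of a fall. In that fit 26 members were called higher, 25 of them among the 34, beside 21.0% of all genes higher and 24.5% lower.

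**Figure D3:**
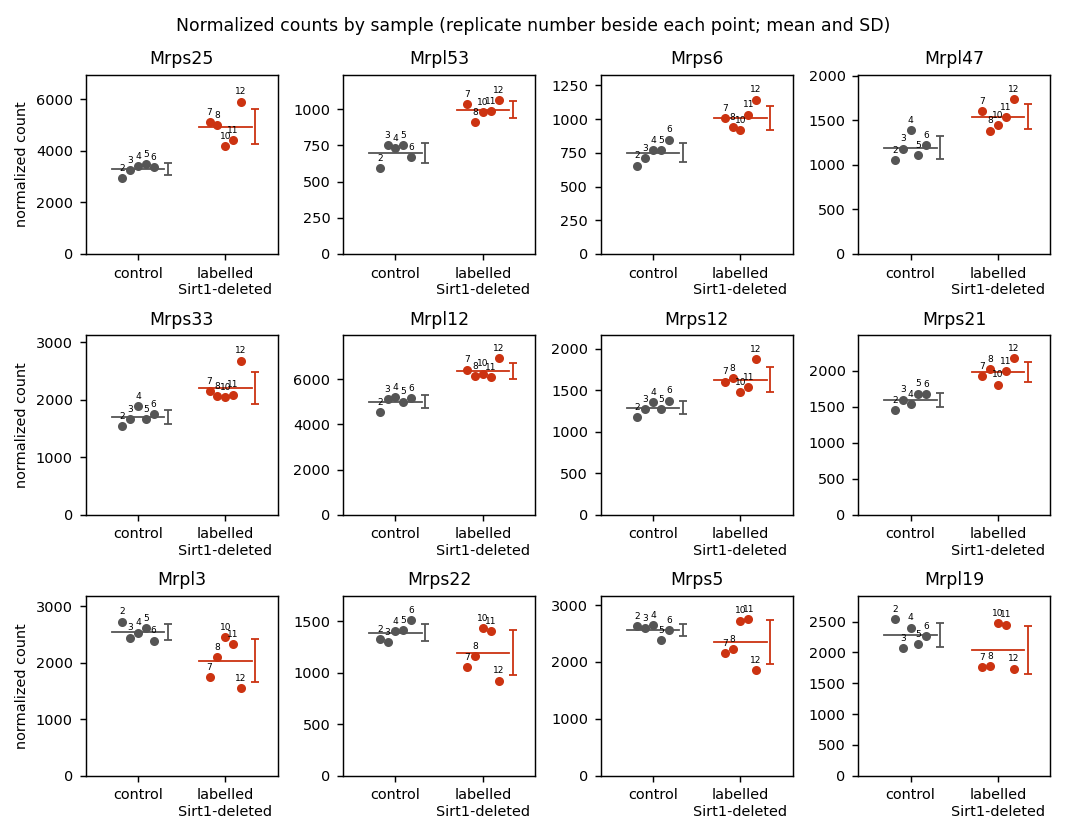
Normalized counts of 12 of the genes in each sample (points, with replicate numbers), group means as lines and SD as bars (n = 5). In the upper 2 rows the labelled Sirt1-deleted samples lie above the controls except for an overlap in Mrpl47; in the lowest row replicates 10 and 11 lie with the controls or close to them while 7, 8 and 12 are below all controls.

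Samples within a group differed across the whole set. Summed over the 78 genes, normalized counts were 153518, 154632, 158073, 160426 and 158170 in the labelled Sirt1-deleted group and 134681, 140262, 146451, 143338 and 146244 in the controls. The groups do not overlap, and the sums are 0.461% ± 0.00819 and 0.417% ± 0.0125 of the total (SD, n = 5 each). Control replicate 2 was the lowest control for 45 of the 78 genes. Without it 24 members were called higher (30.8%), where 12.9% of all genes tested were. Replicates 10 and 11 had the most genes above the control mean, 72 and 75, against 51, 59 and 51 for replicates 7, 8 and 12. Replicate 12 held the highest value of its group for 23 genes and the lowest for another 23. Among the labelled Sirt1-deleted samples, replicates 10 and 11 also had the lowest summed neutrophil markers, at 27194 and 37543. Of the 34 rises 24 passed in all 10 fits that left out 1 sample.

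**Figure D4:**
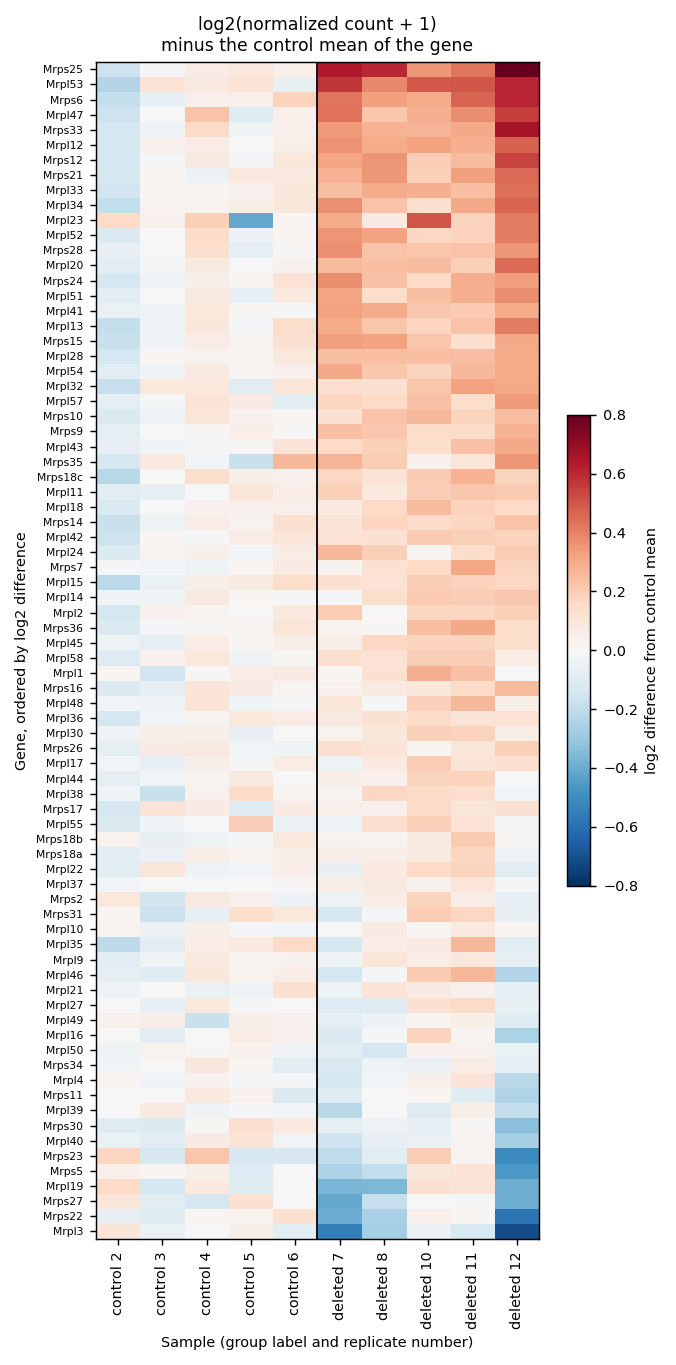
Colour shows log2(normalized count + 1) minus the control mean of the gene, for 78 genes (lines, ordered by log2 difference) in 10 samples (columns). Replicate 12 has the deepest colours at both ends, and replicates 10 and 11 are lightly red over most of the list.

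Mitochondrial ribosomal protein genes have short transcripts, with a median length of 1302 bases beside 2820.5 over all genes tested, and in these data short transcripts of all kinds tended to be higher in the labelled Sirt1-deleted group. The median GC content, 50.4%, was close to the 50% of all genes. Below 1 kilobase, all 1782 genes had a median log2 difference of 0.18, with 25.9% called higher and 3.82% lower, and 15 of 25 members were called higher (median 0.26). From 1 to 2 kilobases the medians were 0.07 for all genes and 0.06 for members, of which 10 of 28 were called higher, beside 21.9% of all genes in that class called higher and 8.62% lower. From 2 to 3 kilobases they were -0.01 and 0.13, with 4 of 8 members called higher, beside 15.9% of all genes higher and 17.1% lower. From 3 kilobases upward all genes had a median of -0.09, with 12.5% called higher and 29.1% lower. Members of that class had a median of 0.12, with 5 of 17 called higher and 1 lower. After a correction of each sample for length and GC content, 31 members were called higher, 26 of them among the 34, where 15.5% of all genes were. The 8 that lost the call were Mrpl52, Mrps10, Mrps18c, Mrpl18, Mrps14, Mrpl42, Mrpl24 and Mrps7. In that fit 3 members were called lower (Mrpl40, Mrps22 and Mrps34), where 16.7% of all genes were. The members' median log2 difference was then 0.09, beside -0.0034 over all genes, with 51 of 78 positive.

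**Figure D5:**
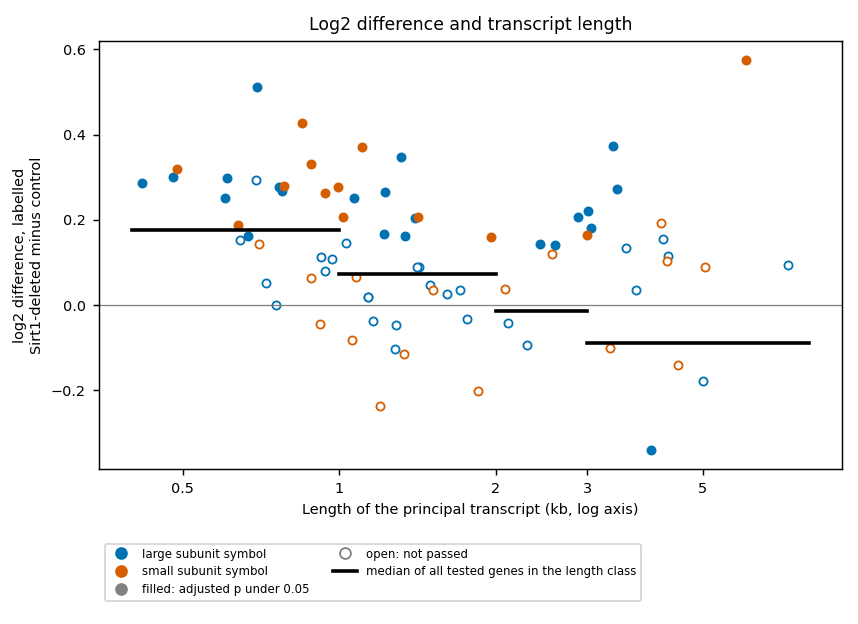
Log2 difference of the 78 genes (points, coloured by subunit symbol, filled where the limma test passed) by length of the principal transcript on a log axis. Black lines give the median of all tested genes in 4 length classes, which goes from 0.18 in the shortest to -0.09 in the longest.

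The genes lie on 17 chromosomes, with at most 11 on any of them, and what their promoters share was described. RefSeq entries (GRCm38.p6, 250 bases before to 50 after the start) were found for 69 of the 78 genes, in 75 promoters. Of these 34.7% held the ETS-family letters CCGGAAG on either strand, beside 8.86% of all 32851 promoters and 16.0% of those of the genes tested. The site of NRF1, a factor known for nuclear genes of mitochondrial proteins, was in 17.3%, beside 4.60% and 9.03%. The YY1 letters AAGATGGC were in 16.0%, beside 2.75% and 4.06%, and the E-box CACGTG was in 9.33%, beside 7.15% and 9.40%. Between genes called higher and the others the counts were alike: 13 of 31 against 13 of 38 genes for ETS, 6 against 7 for NRF1, 5 against 7 for YY1 and 2 against 3 for the E-box. A match describes letters in a window and shows no binding.

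The 200 bases before the start are printed 5′ to 3′ on the gene's strand for 5 genes the results turn on. Mrpl12, called higher, has an NRF1 match (chr11:120484437-120484636, plus strand). Mrps12 has a YY1 match and an ETS match outside the bases printed (chr7:28741822-28742021, minus). Mrpl52, the highest gene per kilobase, has an ETS match (chr14:54426709-54426908, plus). The falling Mrpl3 has an ETS match (chr9:105053068-105053267, plus), and Mrps25 has none of the 4 (chr6:92184024-92184223, minus). Capitals mark the match, on the strand printed or as its reverse complement. An ETS match stands before both the rising Mrpl52 and the falling Mrpl3.
Mrpl12: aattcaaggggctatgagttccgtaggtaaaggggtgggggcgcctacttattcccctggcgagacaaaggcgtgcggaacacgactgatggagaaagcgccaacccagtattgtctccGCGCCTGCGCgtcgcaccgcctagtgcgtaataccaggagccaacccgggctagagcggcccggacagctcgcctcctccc
Mrps12: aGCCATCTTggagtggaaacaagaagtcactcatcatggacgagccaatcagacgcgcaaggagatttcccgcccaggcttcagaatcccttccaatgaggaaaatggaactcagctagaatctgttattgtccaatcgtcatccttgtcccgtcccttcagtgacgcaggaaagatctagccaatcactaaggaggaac
Mrpl52: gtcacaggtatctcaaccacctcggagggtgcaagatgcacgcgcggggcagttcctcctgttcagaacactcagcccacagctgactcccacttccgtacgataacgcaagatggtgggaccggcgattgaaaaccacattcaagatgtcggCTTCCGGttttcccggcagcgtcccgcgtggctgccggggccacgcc
Mrpl3: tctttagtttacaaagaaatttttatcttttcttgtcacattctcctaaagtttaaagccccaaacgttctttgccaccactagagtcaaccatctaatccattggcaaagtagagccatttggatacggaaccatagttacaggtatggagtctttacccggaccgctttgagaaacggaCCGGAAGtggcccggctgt
Mrps25: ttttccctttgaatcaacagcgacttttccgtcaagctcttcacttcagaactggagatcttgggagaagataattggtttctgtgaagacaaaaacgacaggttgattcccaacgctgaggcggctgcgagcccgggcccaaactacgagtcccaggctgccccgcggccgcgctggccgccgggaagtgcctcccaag

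Of the other genes of the pathway, the share called is given beside the 16.8% higher and 19.4% lower of all genes tested. Of 5 further proteins of the mitochondrial ribosome whose symbols follow another pattern, 3 were called higher: Dap3, a GTP-binding small-subunit protein (log2 difference 0.19, adjusted p = 0.0254, and up to 0.0651 without 1 sample, with the call held in 6 of 10 such fits), Aurkaip1 (log2 difference 0.37, adjusted p = 0.0018) and Gadd45gip1 (log2 difference 0.26, adjusted p = 0.00454). Chchd1 (0.03) and Ptcd3 (0.13) did not pass. Of 23 factors that assemble the ribosome or modify its RNA 3 were called higher (13.0%) and 1 lower (4.35%), with a median of 0.04. Among them the RNA helicase Dhx30 had the largest rise (0.61, adjusted p = 0.00552), with an SD of 1517 around 5758 in the labelled Sirt1-deleted group, followed by the RNA nuclease Ybey (0.37), and the ribosomal RNA methyltransferase Mettl15 fell by 0.44.

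Among factors that work on the finished ribosome, calls went in both directions. Of 16 translation and messenger-RNA factors 4 were called higher (25%) and 3 lower (18.8%), with a median of -0.05. The elongation factor exchange protein Tsfm (0.44) and the RNA-binding Slirp (0.30) rose, while the recycling factor Mrrf fell by 0.34 and Lrpprc, the partner of Slirp, fell by 0.22 (adjusted p = 0.0331). The call of Lrpprc held in 4 of 10 fits without 1 sample (adjusted p up to 0.0835) and was lost under 5 of 12 processing alternatives, the length and GC correction among them (adjusted p = 0.121, the highest of the 12). That of Slirp held in 8 of 10 fits without 1 sample (adjusted p up to 0.0561). Tufm, the elongation factor that Tsfm recharges, did not pass (-0.19, adjusted p = 0.116). Of 17 mitochondrial tRNA synthetases 3 were called higher (17.6%) and 4 lower (23.5%), with a median of -0.05, and with Tars2 at 0.27 and Ears2 at 0.26 at one end and Pars2 at -0.41 and Iars2 at -0.27 at the other. The call of Ears2 held in 6 of 10 fits without 1 sample (adjusted p up to 0.0592).

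Upstream and downstream of the ribosome the values were as follows. The mitochondrial RNA polymerase gene Polrmt rose (0.39, adjusted p = 0.011). The mitochondrial transcription factor genes Tfam (-0.09) and Tfb1m (-0.05) did not pass, nor did Myc (-0.10, adjusted p = 0.204), a known regulator of ribosome genes. Of the 13 messages encoded by mitochondrial DNA, which this ribosome translates, 12 were called higher and 0 lower by limma (median 0.44), with 0 lower at an unadjusted p under 0.05 or by the adjusted rank-sum test. Of 86 tested genes for cytosolic ribosomal proteins 40 were called higher and 7 lower (median 0.13), and of 36 nuclear genes for complex I subunits, which join mitochondrially made subunits, 21 higher and 2 lower (median 0.17). After the length and GC correction the median of the cytosolic list was 0.02, beside the 0.09 of the mitochondrial ribosomal protein genes. No test compared these lists with each other.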

How the data were processed

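Total RNA from 10 leukemic spleen samples was sequenced from strand-specific Illumina libraries, per the labels' protocols. The authors deposited 1 table of normalized counts per gene, a signal divided by DESeq normalization factors per the file name. The submitters' processing notes name kallisto 0.44.0, DESeq and the build mm10, and the annotation and strand setting are not given in the sources used here. Whole reads were not recovered, because kallisto gives estimated counts, so depth in reads is unknown and no counting interval is given. There were 0 columns outside the 10 samples.

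The members, the gene lists and the named genes were chosen with earlier results of these data known. Named were the 8 largest rises and 8 largest falls among members with an adjusted p under 0.05 (1 fell), the 6 highest members per kilobase, and genes listed for their role. Groups follow the genotype label. On log2(value + 1), limma 3.58.1 (R 4.3.3) tested the genes with a mean of at least 10. Group was the only term, with an intensity trend and Benjamini-Hochberg adjustment over 15276 genes. The procedure was run on simulated counts with independent genes, the same dispersion for all and few genes changed. That setting is unlike these data, so error rates here were not tested. Adding 1 understates the change of low genes. Exact two-sided permutation tests ran over all 252 assignments of the samples. Lists are described by counts and medians, with no test. Lengths are those of the principal transcript in GENCODE M21, matched for 15266 genes by symbol. Alternatives were other pseudocounts, filters, scalings, limma settings, an exact rank-sum test, a length and GC correction, and samples left out.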

Additional observations from a re-analysis of the deposited data

Results flagged for a closer look

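In 60 sets of 5 samples (25 named members, Sirt1 and 4 averages over subunits, in each group), the extreme sample was set apart from the other 4 by more than 0.71 of the range in 4 cases, where chance gives about 1 in 20, or 3. Mrps33 had 2680 normalized counts in labelled Sirt1-deleted replicate 12, with the others at 2042 to 2145. Mrpl33 had 2392 in the same sample, with the others at 2078 to 2165. Mrps30 was lowest there, at 1692, with the others at 2030 to 2150. Mrpl18 had 3868 in control replicate 2, with the other controls at 4197 to 4314. These are the 2 samples that held the lowest value of their group for the most members, 23 and 45 of 78.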

How the results depend on the processing

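No paired analysis was possible because no replicate number occurs in both groups. No alternative turned the direction of the members' median or of a named gene that passed the test. Pseudocounts of 0.1 and 5 and a minimum mean of 50 left 34 higher and 1 lower. Over all genes tested these settings, in that order, called 16.7%, 16.8% and 18.1% higher and 19.3%, 19.4% and 25.5% lower. A minimum of 1 or no filter left 29 and 1, beside 12.2% of all genes higher in each and 13.4% and 13.3% lower. Upper-quartile rescaling gave a median of 0.202 (large 0.200, small 0.204) and 32 large-subunit genes higher, and quantile normalization medians of 0.205, 0.204 and 0.211. The median over all genes tested also moved, to 0.0584 with upper-quartile rescaling and to -0.0267 with quantile normalization. The members' median exceeded that of all genes by 0.143 with upper-quartile rescaling, beside 0.142 in the report's setting. With quantile normalization it did so by 0.231. Without the trend, and by the exact rank-sum test, 0 members and 0 large-subunit genes were called lower, where 17.0% and 12.9% of all genes were. With sample weights 3 members were lower, 2 of them small-subunit, where 21.8% of all genes were lower. The large minus small difference of medians, -0.0036 in the report's setting, was 0.0159 with these weights. After length and GC correction it was -0.0258, with 3 members lower (2 small-subunit) and medians of 0.0909 over all and 0.0841 in the large subunit. Without labelled Sirt1-deleted replicates 10 and 11 it was -0.0174, with 5 lower (2 large, 3 small), and with subunits by place -0.0296. Over the 43 genes with under 10% shared words, a choice made after seeing the data, 15 were higher (9 large, 6 small) and the difference was -0.0165; fewer genes were counted there. Leaving out 1 sample at a time gave 24 to 34 members higher, 0 to 3 lower (large 0 to 1, small 0 to 2) and a difference of -0.0344 to 0.0143. Over all genes tested these fits called 12.9% to 19.2% higher and 14.6% to 21.9% lower. The 3 lower without replicate 10 were Mrpl3, Mrps22 and Mrps27, and the 2 without replicate 11 were Mrpl3 and Mrps22. For 25 named members, 263 of 300 processing alternatives kept the call, 30 lost it and 7 gained it, and of 250 fits without 1 sample 213 kept, 35 lost and 2 gained it. Where no value above shows it, the cause was not tested.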
